A study of Saccharomyces cerevisiae with 18 samples.

Results

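The step from 8 to 16 min after glucose was given to dormant budding yeast spores is described here from 6 of the 53 arrays of the series, 3 taken at 8 min and 3 at 16 min, over the 5995 genes that had a value on at least 2 arrays at each time. All spores came from the diploid Saccharomyces cerevisiae strain Y55 (HO gal3 MALI SUCI), sporulated in potassium acetate, freed of vegetative cells and asci with zymolyase, and started in pre-warmed 2% glucose without other nutrients. On each array the cDNA of the time point carried Cy5 and that of dormant spores, the common reference, carried Cy3, with no dye swap. The log2 ratio of Cy5 to Cy3 is therefore the level relative to dormant spores, and "change" below is the mean log2 ratio at 16 min minus that at 8 min. The most alike comparison is the same step in YPD (yeast extract, peptone and glucose), with 3 arrays at each time. All groups share the strain, the spore preparation and the reference. The arrays held polymerase products of yeast open reading frames, each spotted in duplicate, and random-primed and oligo(dT)-primed cDNA was labelled.

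A dormant ascospore is a haploid product of meiosis with a thick wall, stores of trehalose and little metabolism. Glucose alone starts germination in this yeast. The sugar signals through the Ras, cyclic AMP and protein kinase A pathway and through the repression of genes for other carbon sources, and a cell that resumes growth makes ribosomes, which takes much of its transcription, while genes of stress resistance, storage carbohydrate and respiration are turned down. How far these programmes moved between 8 and 16 min is the question the comparison addresses. A lower ratio of one transcript on such an array is relative to the rest of the RNA, so less RNA of one kind and more of all others cannot be told apart.

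The arrays were not equal in quality. The 3 arrays at 16 min correlated with each other at r = 0.74 to 0.88 across genes, and 8 min replicates 1 and 2 at r = 0.70, but 8 min replicate 3 correlated with them at only r = 0.28 and 0.33 (genes are not independent, so these are descriptions). Its Cy3 background was 1470, against 524.7 to 571 on the other 5, and its Cy5 background was 935, against 355 to 468. Of its genes 39.4% had a Cy3 signal above background, against 63.4% to 81.7%. On the 3 YPD 8 min arrays, quantified on the same day, the background was 825 to 1097 in Cy3 and 620 to 734 in Cy5. There 57.7% to 77.2% of genes were above background in Cy3. Glucose 8 min replicate 3 correlated with the YPD 8 min replicates 2 and 3 at r = 0.66 and 0.74, more than with the other arrays of its own label. A wrong label or a poor reference channel on that array was not tested, and the mean at 8 min, every change from it and the comparison with YPD rest on the label as given. It shares its array layout and its day of image quantification with all 3 YPD 8 min arrays. What part this has in the results was not tested. The counts, and each list median that the array moves by over 1.5 times or turns in sign, are given without it too, as are single genes where stated. Each time holds arrays of both layouts, and 8 min replicate 1 and 16 min replicate 3 were quantified on one day, which allows a comparison within each.

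Between 8 and 16 min, 49 genes rose and 69 fell (limma, Benjamini-Hochberg adjusted p under 0.05), that is 0.817% and 1.15% of the genes tested and 1.97% together. The spread behind each SE and p-value was estimated within the groups of all 53 arrays, not from the 6 compared arrays alone. Without adjustment 1109 genes had p under 0.05, of which 506 were higher and 603 lower. The genes that rose changed by 0.63 to 2.00 on the log2 scale (median 0.98), and 23 of them by at least 2-fold. Those that fell changed by 0.63 to 1.72 (median −1.01), and 37 of them by at least 2-fold. Over all genes the median change was −0.03 with an SD of 0.43. Whether or not they passed the test, 58 genes (0.967%) were at least 2-fold higher and 84 (1.4%) at least 2-fold lower.

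Every array of 16 min lay above every array of 8 min for all 49 genes that rose, and below for 68 of the 69 that fell. Over all genes tested, 11% lay wholly higher and 13% wholly lower. The exception is YCRX09C, whose fall rested on 8 min replicate 3 (3.33 there, against 0.25 on replicate 1). All 49 and all 69 kept their sign without that array, with median changes of 0.83 and −0.82. However, none of the 5995 genes then passed the adjusted test (763 had p under 0.05 unadjusted), and none passed when only the 6 arrays were fitted in place of all 53 (824 unadjusted). Within the second layout, which holds 8 min replicates 1 and 2 and 16 min replicate 3 alone, 45 of 45 and 65 of 66 measured genes had the reported sign, and on the shared quantification day, with 1 array at each time, 43 of 43 and 60 of 61. Within the first layout the only 8 min array is replicate 3, so the sign there (48 of 48 and 69 of 69) is no separate check. All these values reuse the arrays on which the genes were called.

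**Figure D1:**
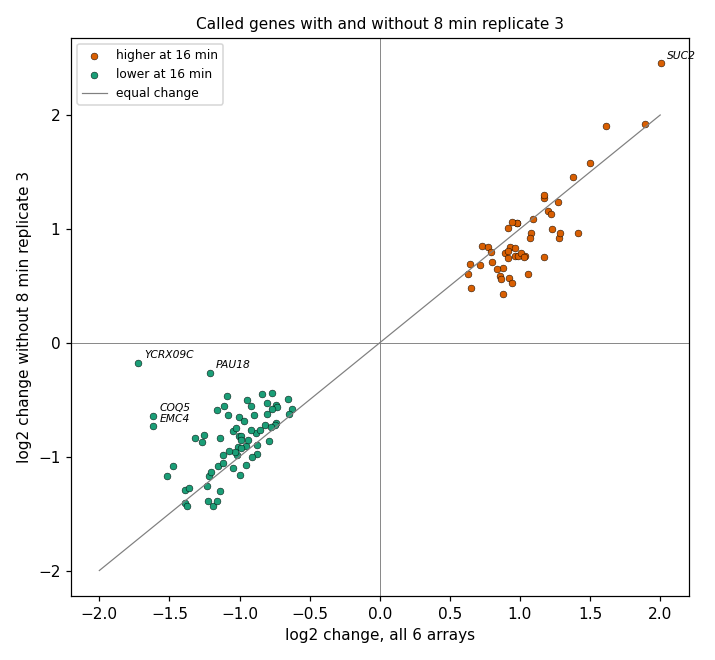
Log2 change from 8 to 16 min of the 49 genes higher and 69 genes lower at 16 min, with all 6 arrays (x axis) and without 8 min replicate 3 (y axis), 1 point a gene, with the line of equal change. All points keep their sign, and YCRX09C, PAU18, COQ5 and EMC4 shrink most, to between −0.18 and −0.74.

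The genes named next are the 10 largest rises and 10 largest falls among called genes whose arrays did not overlap between the times. Each also had a value on all 6 arrays and a Cy5 signal above background at both times. The largest rise was in HSP42 (YDR171W), a small heat shock protein that holds unfolded proteins. Its log2 ratios were 0.04, −0.15 and 0.19 on the 8 min arrays and 1.92, 1.77 and 0.88 on the 16 min arrays. It was thus at the level of dormant spores at 8 min and above it on every array at 16 min, a change of 1.50 ± 0.37 (SE, limma adjusted p = 0.0285). GID10 (YGR066C), a substrate receptor of the GID ubiquitin ligase, which removes gluconeogenic enzymes, had 1.46, 1.43 and 0.10 at 8 min and 2.63, 2.51 and 2.08 at 16 min. Its change of 1.41 ± 0.38 (adjusted p = 0.0411) was 0.96 without 8 min replicate 3, its lowest array. PEX25 (YPL112C), a membrane protein of peroxisome growth, went from 0.04, 0.67 and 0.26 to 1.58, 1.96 and 1.24, a change of 1.27 ± 0.28 (adjusted p = 0.0169). NMA111 (YNL123W), a nuclear serine protease, changed by 1.17 ± 0.29 (adjusted p = 0.029), or 0.75 without 8 min replicate 3.

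Of the 10 largest rises 4 were in genes of RNA polymerases or ribosome assembly. The lists that hold them have 25 and 122 of the 5995 genes tested. RPO26 (YPR187W), a subunit shared by all nuclear RNA polymerases, had 0.72, 1.06 and −0.06 at 8 min and 1.99, 2.02 and 1.57 at 16 min, a change of 1.28 ± 0.27 (limma adjusted p = 0.0113). RPA43 (YOR340C), of RNA polymerase I, which transcribes ribosomal RNA, went from 1.0, 0.55 and 0.32 to 1.46, 1.65 and 1.97. RPC11 (YDR045C), of RNA polymerase III, which transcribes transfer RNA and 5S RNA, went from 0.95, 0.52 and 0.05 to 1.53, 1.48 and 1.53. RIX7 (YLL034C), an ATPase of large ribosomal subunit assembly, went from 0.80, 1.02 and 0.09 to 1.81, 1.97 and 1.24. For RPO26, RPC11 and RIX7 the lowest 8 min array was replicate 3 by a margin, and without it the changes were 0.97, 0.77 and 0.76. All 4 were already above the dormant spore on 8 min replicates 1 and 2.

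HIS3 (YOR202W) of histidine synthesis and UGA2 (YBR006W), succinate semialdehyde dehydrogenase of gamma-aminobutyrate use, complete the rises. HIS3 had 0.08, −0.10 and −0.67 at 8 min and 0.79, 0.69 and 0.86 at 16 min, a change of 1.01 ± 0.26 (limma adjusted p = 0.0322). UGA2 had −0.39, −0.45 and −0.77 at 8 min and 0.83, 0.58 and 0.23 at 16 min. It thus crossed from below to above the dormant spore level on all arrays, with a change of 1.08 ± 0.22 (adjusted p = 0.00879).

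**Figure D2:**
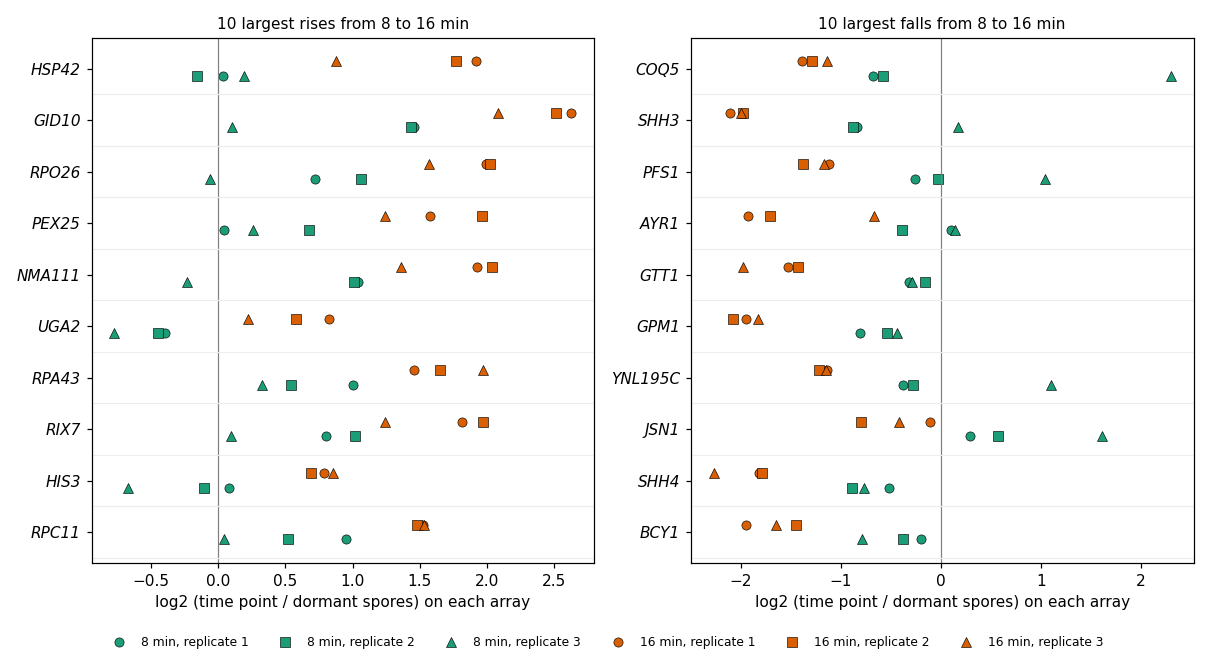
Log2 ratio to dormant spores on each of the 6 arrays (8 min in green, 16 min in orange, marker shape by replicate) for the 10 largest rises (left) and 10 largest falls (right) among the called genes that met the naming rule. The naming rule admits only genes whose times do not overlap. For COQ5 the 8 min replicate 3 (green triangles) stands apart, where it reads 2.30 against −0.68 and −0.58.

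Among the 10 falls, those in genes of mitochondrial or lipid enzymes are given first. This grouping was made after the genes were seen, and the share of such genes among all tested was not counted. SHH3 (YMR118C) and SHH4 (YLR164W) are mitochondrial paralogs of the membrane subunits of succinate dehydrogenase. SHH3 had −0.83, −0.88 and 0.18 at 8 min and −2.10, −1.97 and −2.0 at 16 min, a change of −1.51 ± 0.28 (limma adjusted p = 0.00542). SHH4 had −0.52, −0.88 and −0.77 at 8 min and −1.82, −1.79 and −2.27 at 16 min. The spotted products may not keep these paralogs fully apart from SDH3 and SDH4. AYR1 (YIL124W), a reductase of phosphatidic acid synthesis, had 0.11, −0.39 and 0.14 and then −1.93, −1.71 and −0.67, a change of −1.39 ± 0.39 (adjusted p = 0.0492). COQ5 (YML110C), a methyltransferase of ubiquinone synthesis, has the largest value of the set, −1.62 ± 0.43 (adjusted p = 0.0365), but it was −0.64 without 8 min replicate 3.

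GTT1 (YIR038C), a glutathione transferase, and GPM1 (YKL152C), phosphoglycerate mutase of glycolysis, kept their size without that array. GTT1 had −0.32, −0.16 and −0.28 at 8 min and −1.53, −1.42 and −1.97 at 16 min, a change of −1.39 ± 0.30 with all arrays (limma adjusted p = 0.0148) and −1.40 without it, where no gene passed the test. GPM1 had −0.81, −0.53 and −0.44 and then −1.95, −2.07 and −1.83, a change of −1.36 ± 0.26 (adjusted p = 0.00542). The 3 arrays at each time were closer together for these genes than the times were to each other. Both were named by a rule that asks for times without overlap, so this is no separate support.

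BCY1 (YIL033C) encodes the regulatory subunit that holds protein kinase A inactive until cyclic AMP binds it. It had −0.19, −0.38 and −0.79 at 8 min and −1.94, −1.44 and −1.65 at 16 min, a change of −1.22 ± 0.30 (limma adjusted p = 0.0285). PFS1 (YHR185C), needed for prospore membrane formation in sporulation, went from −0.25, −0.02 and 1.05 to −1.12, −1.38 and −1.17. JSN1 (YJR091C), a Pumilio family RNA-binding protein, went from 0.29, 0.57 and 1.61 to −0.11, −0.80 and −0.42, and YNL195C, of unknown function, fell by 1.32. For PFS1, JSN1 and YNL195C replicate 3 was the highest array at 8 min, and the changes without it were −1.08, −0.87 and −0.84.

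Some called genes lay outside the naming rule and were chosen after their values were seen. SUC2 (YIL162W), the invertase that glucose represses, had the largest called rise, 2.00 ± 0.56 (limma adjusted p = 0.0492), from −0.03, 0.61 and 1.64 to 2.07 and 3.43, with no value on 16 min replicate 3. The genotype lists SUCI, and the spot may not separate the members of the SUC family. SNU13 (YEL026W), a protein of the U3 small nucleolar RNA particle, rose by 1.89, and RRP45 (YDR280W), an exosome subunit, rose by 1.38. POL30 (YBR088C), the sliding clamp of DNA replication, had among the lowest adjusted p-values, 0.00542, with −0.49, −0.20 and −0.23 at 8 min and −1.27, −1.32 and −1.38 at 16 min. RVB1, MRX15, YPR136C and NUT2, called higher, were not above background in Cy5 on any 8 min array, and TYE7, called lower, on any 16 min array, so these 5 have only a bound on that side and no fold is given.

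Gene lists by function, chosen with earlier results of these data known, show where smaller shifts lay. The median log2 ratio of the members was higher on every 16 min array than on every 8 min array in 7 of 31 lists. It was lower on every one in 8 lists and overlapped in 16. Of single genes, 11% lay wholly higher and 13% wholly lower, and no such share was made for lists drawn without regard to function. The 7 lists were ribosome assembly, RNA polymerases I and III, aminoacyl-tRNA synthetases, translation factors, amino acid biosynthesis, purine and pyrimidine synthesis, and nutrient permeases. For the permeases the median change over genes was nevertheless −0.02. The 8 were general stress response, trehalose and glycogen, gluconeogenesis, the TCA cycle, respiration, glycolysis, the proteasome, and spore wall genes. Few members of any list passed the test for single genes, which 0.817% of all genes passed higher and 1.15% lower. No list as such was tested.

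**Figure D3:**
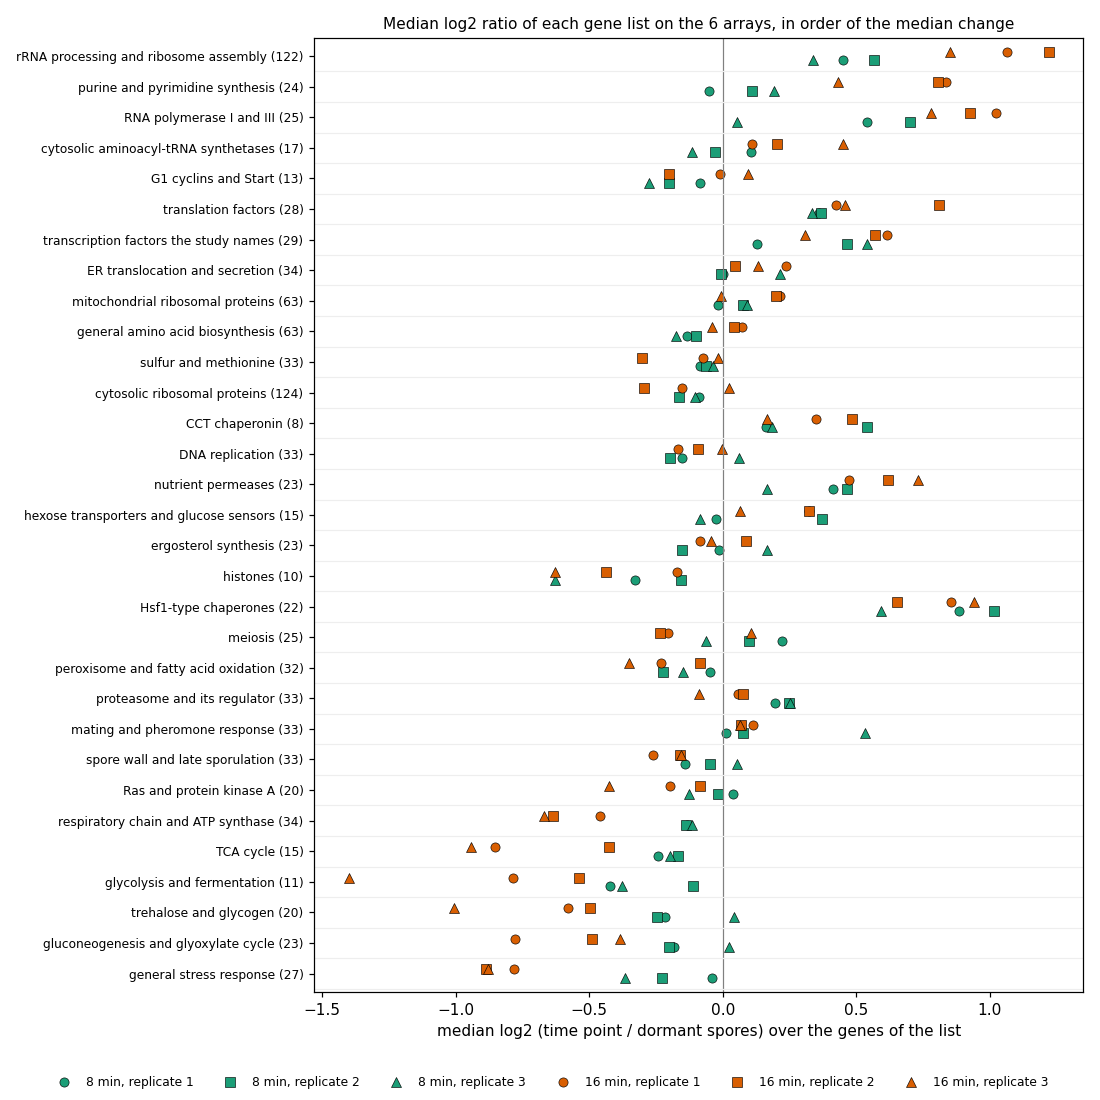
Median log2 ratio to dormant spores over the members of each of the 31 gene lists on each of the 6 arrays (8 min in green, 16 min in orange, marker shape by replicate), ordered by median change, with the number of genes tested in parentheses. The times are apart at both ends of the plot, with 1.07, 1.22 and 0.85 at 16 min for ribosome assembly and −0.78, −0.89 and −0.88 for general stress response, and overlap in most lists between.

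Ribosomal RNA processing and ribosome assembly was among the lists highest in median change. Of its 122 measured genes, 108 had a change above 0 and the median change was 0.54, against 2823 of 5995 genes and −0.03 over all genes tested. Its medians were 0.45, 0.57 and 0.34 on the 8 min arrays and 1.07, 1.22 and 0.85 on the 16 min arrays. In this list RIX7, the helicases MAK5 and DRS1, and RIO1, a kinase of small subunit maturation, passed the test higher and no member passed it lower. MAK5 changed by 0.80, DRS1 by 0.85 and RIO1 by 0.71, and over all genes tested 0.817% passed the test higher and 1.15% lower. The extremes of the list did not pass it: IMP3, of the U3 particle, was 1.24 higher (−0.32, 0.34 and 0.32 before 1.68, 1.94 and 0.44), and the helicase DBP10 was −0.70, with 3.02 on 8 min replicate 3 against 0.48 and 0.98, and 0.06 without that array. The median change of the list was 0.48 without that replicate, 0.70 and 0.35 within the layouts and 0.44 on the shared day.

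The 25 genes of RNA polymerases I and III had a median change of 0.42. By the test RPO26, RPA43 and RPC11 were higher and none lower, against 0.817% and 1.15% of all genes tested. The medians of the list were 0.54, 0.70 and 0.05 at 8 min and 1.02, 0.92 and 0.78 at 16 min. The lowest member, RPC10, read 2.62 on 8 min replicate 3 against 0.44 and 0.18, and its change was −0.15 with that array and 0.62 without it. Without that array the median change of the list was 0.37.

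The genes of translation itself gave smaller median changes. The 124 cytosolic ribosomal protein genes had a median change of 0.00 (0.01 without 8 min replicate 3), with 62 above 0 and none past the test (4 higher and 4 lower at unadjusted p under 0.05), and their medians overlapped between times. The sign of their median followed the layout, −0.11 within the first and 0.24 within the second. In the ribosomal protein list RPL4B had the largest change upward (1.10, limma adjusted p = 0.304) and RPL39 the largest downward (−0.70, adjusted p = 0.367, or −0.19 without 8 min replicate 3), and near-identical paralog pairs in this family may not be separated by the spots. The 17 aminoacyl-tRNA synthetases had a median change of 0.24, from 0.77 for KRS1 to −0.82 for VAS1, and the 28 translation factors one of 0.13 (0.23 without 8 min replicate 3), with 0.81 for TIF4631. None of these passed the test. SUI2 had 4.64 on 8 min replicate 3 against 0.55 and 0.82, so that its change was −0.80 with that array and 0.52 without it. The 63 mitochondrial ribosomal protein genes had a median change of 0.09, with MRPL9 at 0.78 and none past the test.

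Nucleotide synthesis stood with the growth genes. The 24 genes of purine and pyrimidine synthesis had medians of −0.05, 0.11 and 0.19 at 8 min and 0.84, 0.80 and 0.43 at 16 min, with a median change of 0.52 and 19 of 24 above 0. The median change was 0.58 without 8 min replicate 3, 0.49 on the shared day, and 0.53 and 0.22 within the layouts, so its order against ribosome assembly depends on the arrays used. MTD1 (YKR080W), a folate enzyme that supplies carbon for purines, had −0.46 and 0.12 at 8 min, no value on replicate 1, and 2.23, 1.54 and 0.57 at 16 min. It rose by 1.62 ± 0.38 (limma adjusted p = 0.0227). URA3, orotidine phosphate decarboxylase, rose by 0.88 (adjusted p = 0.0311). ADE2, ADE4, URA1 and IMD4 were higher by 1.01, 0.99, 1.20 and 0.98 without passing the test, and ADE16 was the lowest at −0.37.

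The 63 genes of general amino acid biosynthesis had a median change of only 0.08 (0.05 without 8 min replicate 3). By the test 3 of them rose, against 49 of the 5995 genes tested. The 3 were HIS3, CPA1, a subunit of carbamoyl phosphate synthetase for arginine, and SHM1, mitochondrial serine hydroxymethyltransferase. CPA1 had 1.88, 1.22 and 1.28 at 8 min and 2.66 and 2.70 at 16 min (change 1.22, limma adjusted p = 0.0184), and SHM1 changed by 0.89 (adjusted p = 0.0184). LYS2 was the lowest at −0.57 (adjusted p = 0.248). The 33 sulfur and methionine genes had a median change of 0.00 (0.01 without 8 min replicate 3), with MET10 at 0.42 and MHT1 at −0.79 (−0.12 without it) and none past the test. Among 23 nutrient permeases GNP1, a glutamine permease, was 1.15 higher and the ammonium permease MEP1 was at −0.96 (−0.18 without 8 min replicate 3), both past no threshold. The median change of −0.02 (−0.18 without that array) turned sign in most settings although the medians per array did not overlap.

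On the other side, genes of the general stress response were lower almost throughout. Of 27 measured, 2 had a change above 0, with a median of −0.67 and medians of −0.04, −0.23 and −0.37 at 8 min against −0.78, −0.89 and −0.88 at 16 min. TFS1 (YLR178C), an inhibitor of carboxypeptidase Y, was the member that fell. Its log2 ratio was −0.51, −1.29 and −1.63 at 8 min and −2.51, −1.94 and −2.53 at 16 min, a change of −1.19 ± 0.31 (limma adjusted p = 0.0359). RTN2, a reticulon, had the lowest change, −1.55 (−0.17, −0.04 and −0.37 before −1.51, −1.48 and −2.25), but its adjusted p was 0.0657. The glutathione peroxidase GPX1 was at −1.46 with 2.40 on 8 min replicate 3, and −0.72 without it. The catalase CTT1 was at −0.87 and HOR7, the highest, at 0.09. The list median without replicate 3 was −0.66.

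Storage carbohydrate and the routes for carbon sources other than glucose showed the same direction. Of 20 trehalose and glycogen genes 1, the regulator PIG1 (0.38), was above 0, the median change was −0.49 and none passed the test (1 higher and 10 lower at unadjusted p under 0.05). UGP1, which makes UDP-glucose for both stores, was at −1.46 (limma adjusted p = 0.096) with 1.31 on 8 min replicate 3, and at −0.93 without it. The glycogen phosphorylase GPH1 was at −1.03 and the trehalose-6-phosphate synthase TPS1 at −0.56. The 23 genes of gluconeogenesis and the glyoxylate cycle had a median change of −0.52, and MDH3, the peroxisomal malate dehydrogenase, fell by 0.92 (adjusted p = 0.0315), from −0.84, −0.55 and −0.24 to −1.39, −1.22 and −1.76. ADY2, an acetate transporter, was at −1.44 (adjusted p = 0.223) and the activator ADR1, the highest, at 0.71. PCK1, the key enzyme of gluconeogenesis, was at −0.87, FBP1 at −0.51 and ICL1 at −0.26, none past the test.

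In the TCA cycle LPD1, the dihydrolipoamide dehydrogenase of several mitochondrial complexes, fell by 0.74 (limma adjusted p = 0.0315). The median change of the 15 genes was −0.43, with SDH2 lowest at −0.94 (adjusted p = 0.111) and IDH2 highest at 0.23. Of 34 genes of the respiratory chain and ATP synthase ATP1, the alpha subunit of the synthase, and NDE2, an external NADH dehydrogenase, fell. NDE2 had −0.17, −0.20 and 0.08 at 8 min and −1.34, −0.83 and −0.94 at 16 min, a change of −0.94 (adjusted p = 0.0429). ATP1 fell by 1.0 (adjusted p = 0.0357), or 0.65 without 8 min replicate 3, which read 0.92 against −0.37 and 0.09. NDE1, the paralog of NDE2, was at 0.51 with an adjusted p of 0.433, and COX8 at −1.23 with one of 0.0617, or at −0.76 without replicate 3. The list had a median change of −0.40, and −0.31 without replicate 3.

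Glycolysis was only partly measured, because the image software marked many of the brightest spots as poor. Such marks covered 13.3% to 16.9% of all gene spots but 23.8% to 26.5% of the brightest 5% on the 6 arrays. Of 24 glycolytic and fermentation genes 11 could be tested, and GPM1 and ENO2, an enolase with near-identical copies, fell. ENO2 (YHR174W) had −0.66, −0.27 and −0.07 at 8 min and −1.17, −1.40 and −1.67 at 16 min, a change of −1.08 ± 0.26 (limma adjusted p = 0.0285). HXK2, the main hexokinase, was at 0.23 and the median change was −0.46. With all spots kept, 24 genes could be tested, GPM1, ENO2, TPI1 and PDC6 fell, and the median change was −0.60. The 15 hexose transporter and glucose sensor genes had a median change of −0.04 (0.03 without 8 min replicate 3), with HXT6 at −0.56 and GAL2 at 0.48 and none past the test, and HXT6 is nearly identical to HXT7.

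Chaperones of the heat shock type, in which HSP42 was the member that rose, were already high at 8 min and did not move together. Their medians were 0.88, 1.02 and 0.59 at 8 min and 0.85, 0.65 and 0.94 at 16 min, and 10 of 22 had a change above 0. YDJ1 was at 0.95, HSP82 at −0.01, HSP104 at −0.70 and SSA3 at −1.0. FES1, an exchange factor of Hsp70, was lowest at −1.01 (limma adjusted p = 0.179), from 3.15, 2.57 and 1.65 to 1.22, 1.53 and 1.58. The sign of the list's median change, −0.08, turned in some settings, and it was −0.25 without 8 min replicate 3. The 8 genes of the CCT chaperonin had a median of −0.01 (0.02 without that array), from 0.55 for TCP1 to −0.18 for CCT6, and the 33 proteasome genes one of −0.17, with RPT5 at 0.77 and RPN1 at −0.64, and none of either list passed the test.

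**Figure D4:**
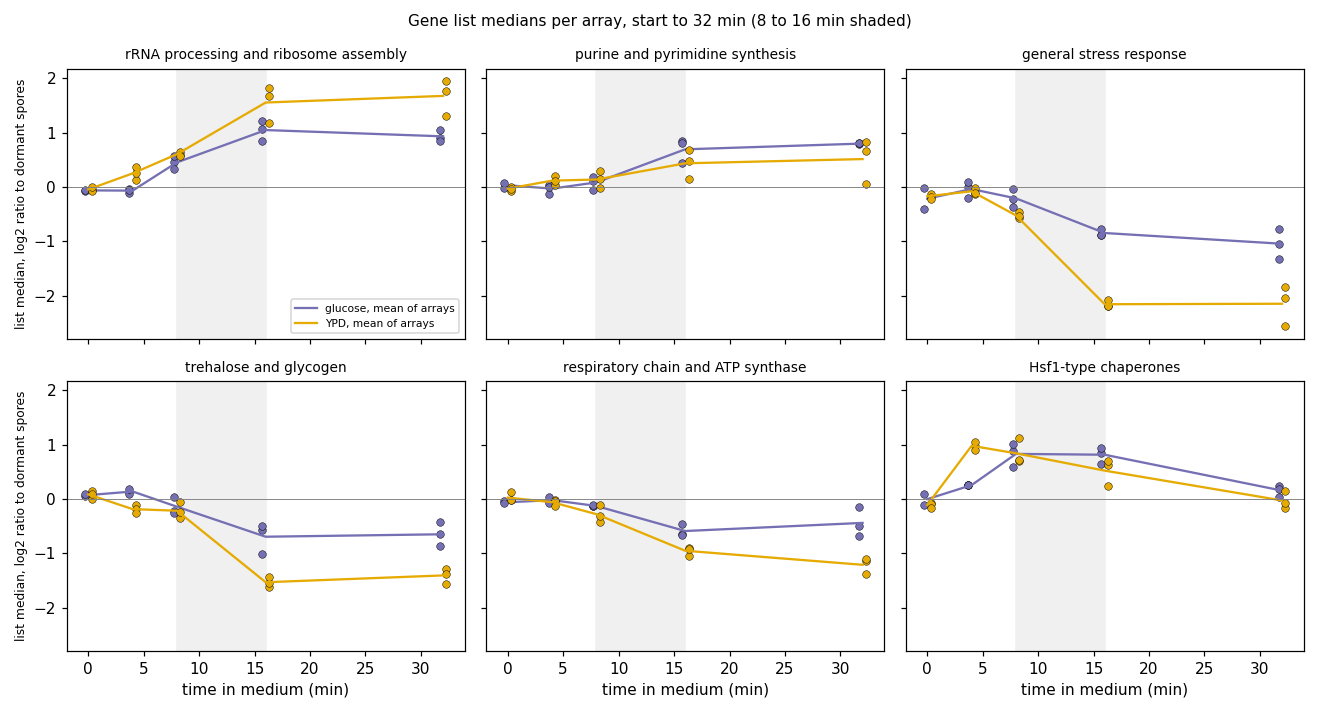
Median log2 ratio to dormant spores of 6 gene lists on each array (points) and their means (lines) from the start to 32 min in glucose (purple) and YPD (yellow), with the 8 to 16 min step shaded. In glucose the mean for ribosome assembly goes from 0.45 at 8 min to 1.04 at 16 min and 0.93 at 32 min, and that for general stress response from −0.21 to −0.85 and −1.05.

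In the Ras and protein kinase A list, through which glucose acts on spores, BCY1 fell and no other member passed the test. TPK3, a catalytic subunit of the kinase, was at 0.74 (limma adjusted p = 0.0729), the adenylate cyclase CYR1 at −0.86 and the phosphodiesterase PDE2 at 0.61. The median change of the 20 genes was −0.30, but 0.01 within the first layout and −0.44 within the second. Of the spore wall and late sporulation genes, SPS4 fell by 1.12 (adjusted p = 0.0379), from −0.75, −0.72 and −0.56 to −1.59, −1.79 and −2.0, while SWM1 was 1.34 higher without passing the test. The median change of these 33 genes was −0.24, and 0.00 within the second layout.

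For the remaining lists the medians per array overlapped between the times and the median changes lay between −0.18 and 0.18. Without 8 min replicate 3 these went from −0.18 to 0.08 for mating, from 0.18 to 0.09 for the G1 genes, from −0.02 to 0.07 for DNA replication, from −0.06 to −0.13 for the histones, from −0.06 to 0.11 for ergosterol synthesis, from 0.10 to 0.20 for secretion and from −0.14 to −0.09 for the peroxisome. Among the secretion genes SEC12, the exchange factor that starts vesicle budding from the endoplasmic reticulum, rose by 0.96 (limma adjusted p = 0.0204), and among those of the peroxisome PEX25 rose while PXA2 was at −0.71. POL30 was the replication gene that fell, with ORC6 0.92 higher and not called (adjusted p = 0.0576). The largest changes in the other lists did not pass the test: HTA1 (0.86) and HHT2 (−0.40) of the histones, MBP1 (0.58) and CLB5 (−0.23) of the G1 genes, STE5 (0.80) and BAR1 (−1.27) of mating, MSH4 (0.23) and DMC1 (−0.67) of meiosis, and ERG4 (0.50) and UPC2 (−0.81) of ergosterol synthesis. For BAR1 and UPC2 the 8 min replicate 3 reads 2.86 and 1.84, and their changes without it were −0.46 and 0.00.

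The study names a set of transcription factors for germination, chosen partly on these samples, so their values are no independent evidence. Of 29 that could be tested, ROX1 rose, RAP1 fell and 27 did neither. ROX1 (YPR065W), the repressor of hypoxic genes, had 1.33, 1.66 and 1.08 at 8 min and 2.55, 2.21 and 2.21 at 16 min, a change of 0.97 ± 0.20 (limma adjusted p = 0.00879). With median in place of mean spot intensity its change turned to −0.29 (adjusted p = 0.641). RAP1 (YNL216W), which binds ribosomal protein and glycolytic promoters, had 0.31, 0.49 and 0.96 at 8 min and −0.27, 0.06 and −0.32 at 16 min, a change of −0.77 ± 0.19 (adjusted p = 0.0303). ROX1 was high against dormant spores at both times, and RAP1 close to their level at 16 min.

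Other factors are given by their change, none of them past the test. They are not the whole of the 27, and 4 further factors that the study names could not be tested. Regulators of carbon and stress genes gave 0.81 for MIG1, 0.39 for NRG1, 1.08 for MSN4 (on 2 arrays at each time, adjusted p = 0.364), −0.09 for MSN2, 0.23 for HSF1 and 0.12 for YAP6. Those of glycolytic and ribosomal genes gave −0.35 for GCR1, −0.36 for GCR2, 0.34 for FHL1 and −0.01 for SFP1. The respiratory regulators gave 0.05 for HAP1, 0.12 for HAP2 and 0.53 for HAP5, while HAP3 was not above background on any 8 min array and has only a bound there. Amino acid, purine and sulfur regulators gave −0.30 for GCN4, 0.58 for BAS1, −0.19 for LEU3, −0.55 for CBF1, −0.33 for MET28, 0.35 for MET31, 0.08 for MET32 and −0.06 for DAL81. Those of mating, filamentation and meiosis gave 0.37 for STE12, 0.30 for DIG1, 0.00 for PHD1 and 0.27 for UME6. Without 8 min replicate 3 the median change of the 29 was 0.25 in place of 0.12, and GCR2 was at 0.13, LEU3 at 0.28, MSN2 at 0.27 and HAP5 at 0.08. MSN2, MIG1, NRG1 and SFP1 were all above the dormant spore level on each array with a value, at 8 and at 16 min.

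In YPD the same minutes brought more calls. By its own test in the same fit, 31.7% of 5974 genes passed, 769 higher (12.9%) and 1122 lower (18.8%). Of the genes that rose in glucose, 46 of 48 with a YPD value had the same sign there, 30 were called higher and 0 lower, with a median YPD change of 0.83. Of those that fell, 65 of 68 had the same sign, 55 were called lower and 0 higher, with a median of −1.13. Over all genes, 70.9% of those with a change above 0 in glucose and 72.5% of those below it had the same sign in YPD, and 60.3% and 64% without glucose 8 min replicate 3. Both steps share the reference but no array, and that replicate shares its layout and quantification day with all 3 YPD 8 min arrays (its part in the equal signs was not tested). No quantification day holds YPD arrays of both times, so in YPD the step and the day cannot be told apart.

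**Figure D5:**
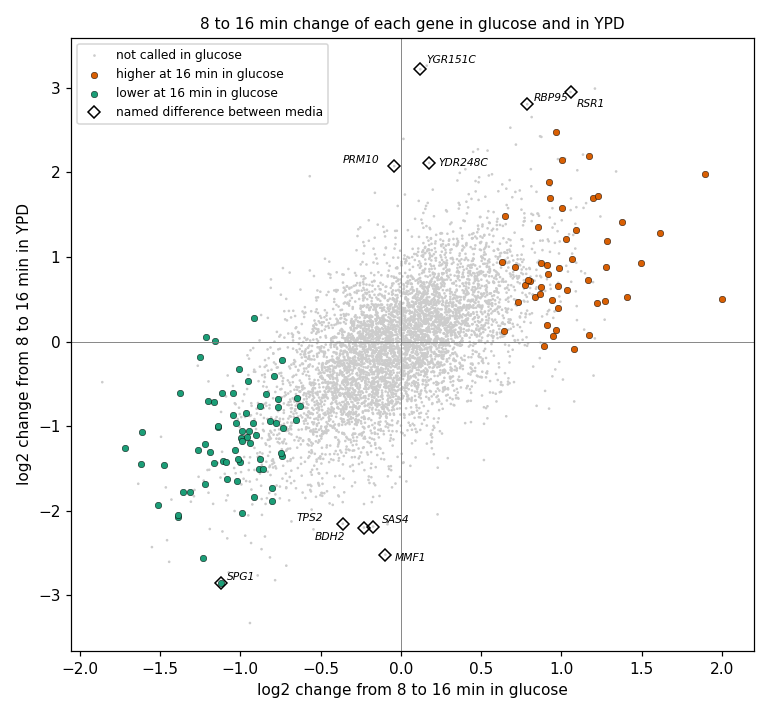
Log2 change from 8 to 16 min of each gene in glucose (x axis) and in YPD (y axis), with the genes higher (orange) and lower (green) in glucose and the 10 named differences between media (diamonds). Most called genes lie in the quadrants of equal sign, while YGR151C changes by 3.22 in YPD and 0.12 in glucose.

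The median changes of the lists, set side by side, were larger in YPD for most of those named here. Ribosome assembly changed by 0.54 in glucose and 0.83 in YPD, where 65 of 115 genes passed higher and 2 lower. General stress response changed by −0.67 and −1.48 (15 of 24 lower in YPD), trehalose and glycogen by −0.49 and −0.97 (14 of 20 lower), gluconeogenesis by −0.52 and −1.26 (16 of 22 lower) and the respiratory chain by −0.40 and −0.78 (16 of 31 lower). Purine and pyrimidine synthesis changed by 0.52 in glucose and −0.07 in YPD, although 6 of 23 genes passed higher there and 0 lower. The medians of that list per array in YPD were on average 0.13 at 8 min and 0.43 at 16 min, a sign opposite to that of its median change. The difference of list medians between media was not tested.

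Gene by gene, the difference of the steps passed the test for 115 of 5810 genes (1.98%), 73 with the step in glucose above that in YPD (1.26%) and 42 below (0.723%). Of the genes called in glucose, 4 were among them, UGA2, SPG1, YKL107W and SEC12. UGA2 rose by 1.08 in glucose and was at −0.09 in YPD (difference 1.17, limma adjusted p = 0.0422). SEC12 rose in both, by 0.96 and 2.48. YKL107W fell in both, by 0.80 and 1.88. SPG1 (YGR236C), a gene named for survival in stationary phase, fell by 1.12 in glucose and by 2.86 in YPD.

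The largest differences otherwise came from genes that did not pass the test in glucose. SAS4 (YDR181C), of the SAS histone acetyltransferase, had 1.04, 1.40 and 0.99 at 8 min and 1.43, 1.06 and 0.43 at 16 min in glucose, a change of −0.17. In YPD it went from 1.36 ± 0.10 (SD, n = 3) to −0.83 ± 0.27, a difference between media of 2.01 (limma adjusted p = 0.000494). TPS2 (YDR074W), trehalose-6-phosphate phosphatase, was at −0.36 in glucose and fell from −0.22 ± 0.04 to −2.38 ± 0.43 in YPD (difference 1.79, adjusted p = 0.0407). MMF1 (YIL051C), a mitochondrial protein, was at −0.10 and fell from 2.28 ± 0.16 to −0.24 ± 0.11 (difference 2.42, adjusted p = 0.0495). BDH2 (YAL061W), a putative butanediol dehydrogenase, was at −0.23 and fell by 2.20 in YPD (difference 1.97, adjusted p = 0.0197).

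In the other direction, RSR1 (YGR152C), the Ras-like GTPase of bud site selection, was 1.34, 1.33 and 0.25 at 8 min and 1.73, 1.94 and 2.44 at 16 min in glucose. It went from 0.96 ± 0.23 to 3.91 ± 0.45 in YPD (difference −1.89, limma adjusted p = 0.0292). YGR151C, whose systematic name is the neighbour of that of RSR1, had 1.84 and 1.70 and then 1.64, 1.93 and 2.11 in glucose, and 0.70 ± 0.06 (n = 2) to 3.92 ± 0.27 in YPD (difference −3.10, adjusted p = 0.000468). RBP95 (YCR016W), of the large ribosomal subunit precursor, changed by 0.79 and 2.81 (difference −2.02, adjusted p = 0.0148), YDR248C by 0.18 and 2.11 (difference −1.94, adjusted p = 0.0123) and PRM10 (YJL108C), a pheromone-regulated gene, by −0.04 and 2.08 (difference −2.12, adjusted p = 0.0407). If 2 spotted products overlap in sequence, as neighbouring reading frames can, an array of double-stranded spots cannot tell their transcripts apart. The number of such differences moved with the settings, from 3 with only the 12 arrays in the fit to 319 without glucose 8 min replicate 3.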

How the data were processed

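The deposited files are the scanner output of 53 two-colour arrays in 18 groups, 1 file per channel with spot and background intensities, and a table of log2 ratios. Per the file headers the authors quantified 13056 spots per array with ImaGene 6.0.1, while the methods name other image software. The intensity values were deposited without normalization. The log2 values in the authors' table are means per group after loess. They were used as an alternative, since they correlated at r = 0.87 (8 min) and 0.96 (16 min) with the means computed here and were compressed (slopes of 0.54 and 0.66).

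From the scanner files, mean intensities were background corrected (normexp, offset 50) and loess normalized within arrays, with control spots and spots the authors flagged poor or by hand given no weight, and a gene's spots averaged. Between arrays of 1 layout, duplicate-spot differences correlated at −0.01 to 0.03, while Cy5 local backgrounds correlated at 0.59 to 0.74, or 0.12 and 0.16 for pairs with 8 min replicate 3. The methods state independent experiments and biological replicates for each time, but the labels speak of biological and scan replicates together. The p-values thus rest on the spread between arrays within groups, pooled over the whole series, which may be partly technical. Tests used limma 3.58.1 in R 4.3.3 (statmod 1.5.0, data.table in version 1.17.8) in 1 fit of all 53 arrays, with Benjamini-Hochberg adjustment at 0.05. Processing notes of the submitters also name limma. Of 6218 genes on both layouts, which differ at 370 spots, 223 were left out for under 2 values at a time, and 5450 of those tested matched a RefSeq name by locus tag. "Above background" means over the background mean plus 2 SDs on at least 1 spot. From 0 to 5 spots per array were saturated in Cy5. The precision is limited by the 3 arrays a group.

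Genes were named by rule: the 10 largest rises and falls as stated, and the extreme of each list in both directions among genes above background. For the contrast of media the 5 highest and the 5 lowest called differences were named. Tested factors that the study names were added. The members and lists were chosen with earlier results of these data known. The fit was tested on simulated data (5995 genes) with independent noise and each gene's spread pooled over all 18 groups. It recovered 47 of 100 genes changed by 1 on the log2 scale and 93 of 100 changed by 1.5, and called 7 unchanged genes. An array as far from its group as 8 min replicate 3, the layouts and the quantification days were not simulated, so these rates do not cover them. Promoter sequences were not used here.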

Additional observations from a re-analysis of the deposited data

Results flagged for a closer look

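The step from 8 to 16 min differed between glucose and YPD by the test of that difference (limma, adjusted over 5810 genes) for 10 named genes. At 16 min no quantification day holds arrays of both media, and at 8 min 1 glucose array shares the day of the YPD arrays, so at 16 min medium and day cannot be told apart. With glucose above YPD, the difference on the log2 scale was 2.42 for MMF1, 2.01 for SAS4, 1.97 for BDH2, 1.79 for TPS2 and 1.74 for SPG1. With glucose below YPD, it was −3.10 for YGR151C, −2.12 for PRM10, −2.02 for RBP95, −1.94 for YDR248C and −1.89 for RSR1. Of the settings that gave each a value, the call held in 7 of 26 for MMF1 (range 0.38 to 3.05), 13 of 28 for TPS2, 13 of 27 for PRM10, 15 of 28 for RSR1, 16 of 28 for SPG1, 20 of 28 for BDH2, 22 of 28 for RBP95, 24 of 28 for YDR248C, 27 of 28 for SAS4 and 24 of 24 for YGR151C.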

How the results depend on the processing

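The counts depend on which arrays enter. Leaving out 1 array moved the genes higher from 49 to between 0 and 67, those lower from 69 to between 0 and 148, genes at least 2-fold changed from 142 to between 121 and 334, list members called from 27 to between 0 and 42, and differences between media from 115 to between 14 and 319. Without 8 min replicate 3 there were 0 calls, without 16 min replicate 1 there were 4 higher and 9 lower, and without 16 min replicate 2 there were 2 and 8. With only the 6 arrays fitted, 0 genes higher, 0 lower and 0 list members were called, and with only glucose arrays 0, 4 and 1. Within layout 1 there were 264 higher, 514 lower and 125 list members, within layout 2 there were 2, 2 and 0, on the shared quantification day 0, 0 and 0 (limma, 1 array against 1, with the spread of all groups assumed), and with that day as a random block 20, 38 and 16. An offset of 10 gave 32 higher and genes above background alone 29. The 2-fold count was 33 without background subtraction, 227 with an offset of 10 and 29 in the authors' table. Differences between media numbered 28 with median centring, 5 with scaling between arrays, 40 with median spot intensity, 3 with only the 12 arrays, 203 with layout as a block and 3 with day as a random block. Print-tip loess gave 64 higher and 103 lower, of which 28 and 47 were among those reported. ROX1 turned to −0.29 with median spot intensity (adjusted p = 0.641). The cause of these shifts was not tested beyond the fewer arrays or genes that a setting holds.

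Whether replicate numbers pair the arrays was not tested, and each numbering gives too few pairs to decide it. The reported fit holds no replicate block. Deviations from the group means correlated at −0.26, 0.15 and −0.01 between arrays of equal deposited number. By the numbers in the image names they correlated at 0.24, 0.16 and −0.06. Pairs equal in neither number gave −0.05, −0.23 and 0.07. The image numbers differ from the deposited ones at 16 min and were looked at after seeing the data. With the deposited number as a replicate block there were 106 higher, 151 lower, 53 list members and 180 differences between media, and with the image number 150, 149, 74 and 259; the reported 49 and 69 genes were among both. Named genes that had passed the test kept their sign and call in 613 cases over all settings, lost the call in 346 and turned in 1. Those that had not passed it gained a call with the same sign in 63 cases. The other 1743 cases held no such gain, and they include changes that turned in sign. Promoter motifs and their window were not run.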
